A study of Mus musculus with 6 samples.

Results

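The RNAs described here come from the imprinted Dlk1-Dio3 region of mouse chromosome 12. The list held 6 genes: the noncoding RNA genes *Meg3*, *Rian* and *Mirg*, and the protein-coding genes *Dlk1*, *Rtl1* and *Dio3*. All probe sets that the array platform's table names for any of them were taken, which gave 19 probe sets for 4 of the 6 genes, out of 45037 probe sets other than controls: 11 for *Meg3*, 4 for *Rian*, 2 for *Mirg* and 2 for *Dlk1*. *Rtl1* and *Dio3*, with 0 probe sets of their own, were not analysed here. The region was picked because its RNAs had stood out as higher in knockout on these same arrays, so its genotype differences are given as a description and not as a test.

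The study compared tail tip fibroblasts of newborn mice lacking *Hotair* with wild-type ones, both backcrossed to C57BL6. *Hotair* is a long noncoding RNA of the Hoxc cluster, and imprinted genes appear in the series title. There were 3 *Hotair* knockout and 3 wild-type samples, each on its own Affymetrix mouse genome array. No label ties the replicates of a genotype to different mice or dishes, so the source of the spread between them is not known. The labels give neither the design of the *Hotair* allele nor the number of mice used.

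In mice, genes of this region are read from only 1 parental chromosome. The chromosome inherited from the father makes the protein-coding messages: *Dlk1* encodes a membrane protein of the Notch ligand family also known as preadipocyte factor, *Rtl1* a protein derived from a retrotransposon and needed in placenta and muscle, and *Dio3* the deiodinase that inactivates thyroid hormone. The chromosome inherited from the mother makes noncoding RNAs in a row, running from *Meg3* through *Rian*, a host of small nucleolar RNAs, to *Mirg*, a host of microRNAs. A stretch of DNA between *Dlk1* and *Meg3* that carries methylation on the paternal copy keeps the chromosomes apart.

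Values are RMA signals on the log2 scale, so a difference of 1 is a doubling in signal, and levels of different probe sets cannot be set against each other. In bulk samples fewer cells with an RNA and less RNA per cell cannot be told apart. Array medians were 5.56 to 5.68. Replicate 1 of both genotypes stood apart: over all probe sets these arrays correlated at 0.983 with each other and at 0.930 to 0.957 with the other 4. Their mean over 9 proliferation markers was 8.55 in knockout and 7.72 in wild type, against 11.18 to 11.36 and 10.99 to 11.19 on the other knockout and wild-type arrays. Knockout replicate 1 also had the largest 3′ minus 5′ difference of the *Actb* control probe sets, which grows as RNA degrades, at 0.63 against 0.12 to 0.21 on the other 5 arrays. Of 10 fibroblast markers, 10 had a mean of at least 6, with a list mean of 12.79 to 12.93 in knockout and 11.13 to 12.45 in wild type. The mean reached 6 for 0 of 5 endothelial, 1 of 6 skeletal muscle and 2 of 6 keratinocyte markers. The keratinocyte list mean was 4.81 to 5.35 in knockout and 5.16 to 5.49 in wild type. Its member *Dsp*, a desmosome protein, read 5.49, 3.58 and 3.70 in knockout, against 6.43, 6.74 and 6.18 in wild type, and was called as lower without replicate 1 of both genotypes. The list's other members differed by only −0.05 (*Epcam*) to 0.14 (*Krt5*) over all arrays (knockout minus wild type), against −2.20 for *Dsp*. The part of *Dsp* in the region's values was not tested.

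The region's RNAs were higher in knockout on nearly every probe set. Of 19 probe sets 18 had a higher mean in knockout and 1, for *Dlk1*, lay at −0.01; over all probe sets 49.1% were higher. The median difference was 1.55, against 0.0 over all probe sets, and 15 of 19 were higher by at least 1, as were 2.1% of all probe sets. Every knockout array lay above every wild-type array for 9 of 19, against 4.48% of all probe sets. By limma with Benjamini-Hochberg adjustment over all 45037 probe sets, 0 of 19 were called, beside 0% (0) of all. At an unadjusted p under 0.05 there were 8 of 19 and 2406 of 45037. Since the genotype difference chose the region, nothing is read from these shares. Without knockout replicate 2 the median difference was 1.02.

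**Figure D1:**
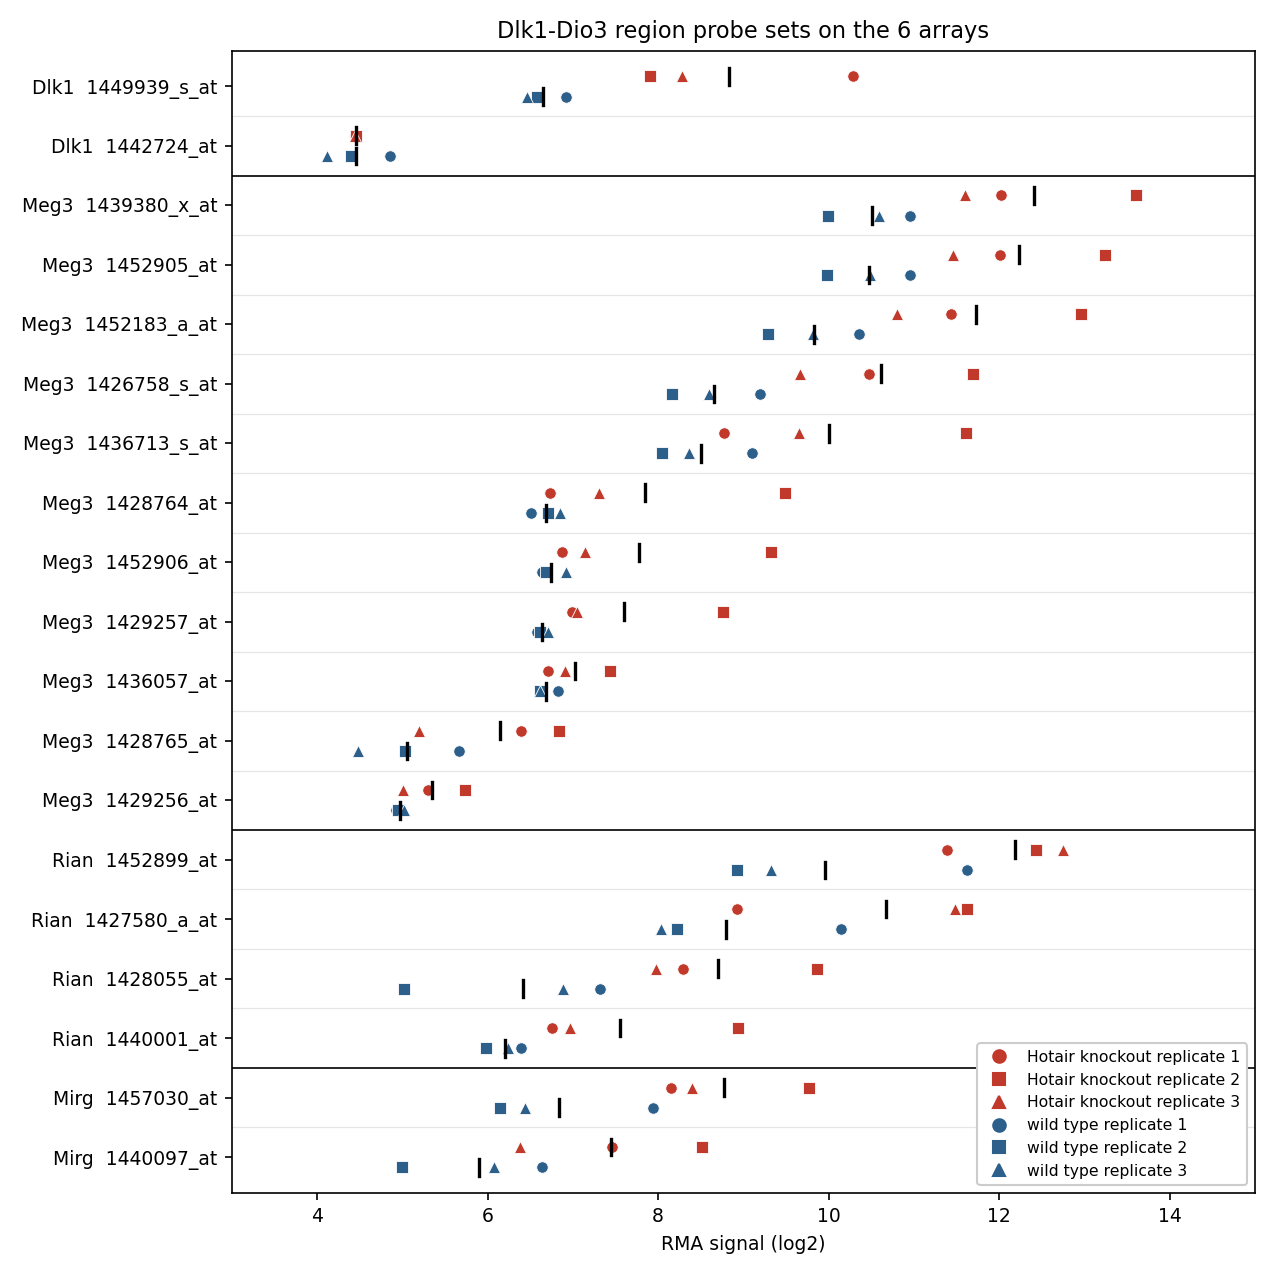
RMA signal (log2, horizontal axis) of the 19 probe sets of the region on the 6 arrays, with knockout in red above wild type in blue, a symbol for each replicate number and a black bar at each mean. Knockout replicate 2 (square) was the highest knockout array for 17 of 19 probe sets, and the groups did not overlap for 9.

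*Meg3* was higher in knockout on all 11 of its probe sets. It encodes a long noncoding RNA that is spliced and kept in the nucleus, and it is the RNA nearest to the methylated control region. The brightest probe set, 1439380_x_at, read 12.02, 13.61 and 11.60 in knockout replicates 1, 2 and 3, against 10.95, 9.99 and 10.59 in wild type. The groups did not overlap, and knockout replicate 2 was highest while wild-type replicate 2 was lowest. Its means were 12.41 ± 1.06 in knockout and 10.51 ± 0.48 in wild type (SD, n = 3 each), a difference of 1.90 ± 0.57 (SE of the fit), or 3.74-fold. In Affymetrix naming _x_at marks a set with probes that may also bind other transcripts, _s_at a set shared by several transcripts and _a_at one shared by transcripts of 1 gene.

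The next 3 bright *Meg3* probe sets gave nearly the same profile. With each profile centred on its own mean, 1452183_a_at lay at a root mean square distance of 0.08 from 1439380_x_at, 1452905_at at 0.13 and 1426758_s_at at 0.15 log2 units over the 6 arrays. Their differences were 1.91 ± 0.60, 1.76 ± 0.51 and 1.96 ± 0.56 (SE), and in each the knockout arrays ranked replicate 2, 1, 3 and the groups did not overlap. The fifth bright set, 1436713_s_at, read 8.77, 11.61 and 9.65 in knockout, against 9.10, 8.05 and 8.36 in wild type. Here knockout replicate 1 fell inside the wild-type range, and the difference of 1.51 ± 0.75 (SE) was 0.71 without knockout replicate 2.

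The dimmer *Meg3* probe sets gave smaller differences, and most of these rested largely on knockout replicate 2. On 1428764_at the values were 6.73, 9.49 and 7.31 in knockout and 6.51, 6.71 and 6.85 in wild type. Likewise 1452906_at read 6.87, 9.33 and 7.14 in knockout and 6.64, 6.68 and 6.92 in wild type. Knockout replicate 2 stood more than 2 log2 units above wild type on each, while the other knockout arrays were within or just above the wild-type values. Without knockout replicate 2 their differences were 0.33 and 0.25, against 1.15 ± 0.71 and 1.03 ± 0.66 (SE) over all arrays, and 1429257_at likewise had 0.38 against 0.96 ± 0.49, although all its knockout arrays lay above all its wild-type arrays. The 3 dimmest, 1436057_at, 1428765_at and 1429256_at, differed by 0.33, 1.08 and 0.38, and by 0.12, 0.73 and 0.19 without knockout replicate 2. On 1428765_at knockout replicate 1, at 6.39, also lay above the wild-type arrays, at 5.67, 5.03 and 4.48. Across *Meg3*, the 5 sets with a mean of at least 8 differed by 1.51 to 1.96 and the 6 below it by 0.33 to 1.15. RMA compresses differences of dim probe sets, and its part in this split was not tested.

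**Figure D2:**
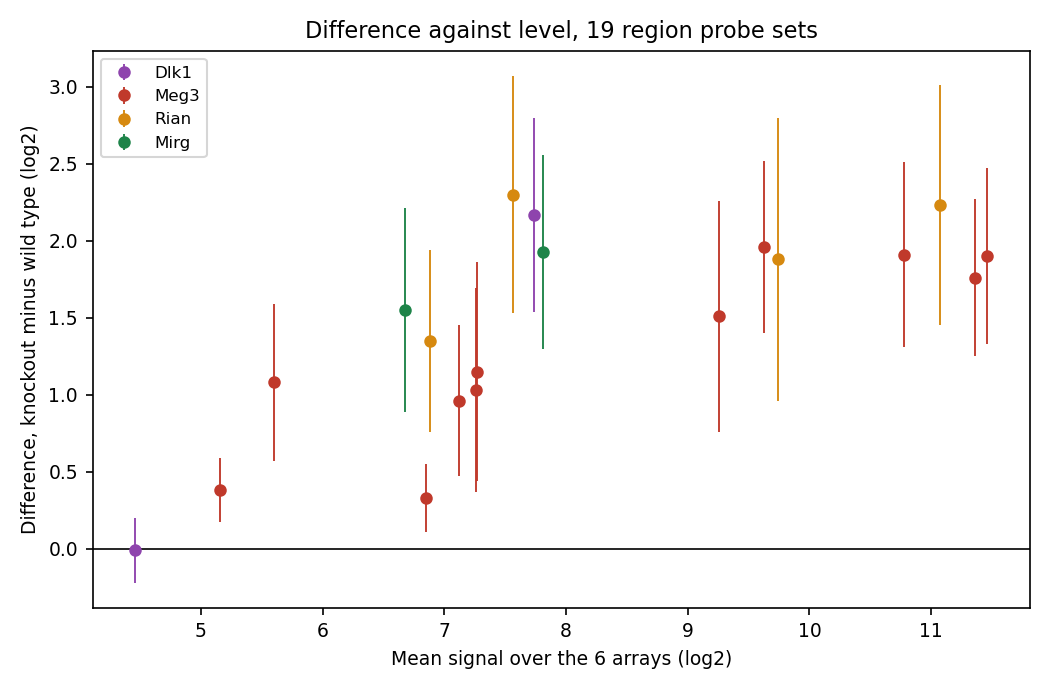
Difference between genotypes (knockout minus wild type, log2, vertical axis, bars are the SE of the fit) against the mean signal over the 6 arrays (log2, horizontal axis) for the 19 probe sets, coloured by gene. Among *Meg3* probe sets the 5 with a mean of at least 8 lay at 1.51 to 1.96 and the 6 dimmer ones at 0.33 to 1.15.

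The stretch of DNA at the start of *Meg3* is shown because *Meg3* is the first of the maternally expressed RNAs that were higher together. It is the first of the RefSeq windows of *Meg3* in GRCm38.p6, plus strand, chr12:109540746-109541045, from 250 bases before the annotated start to 50 after it. Capitals mark matches on either strand to a cyclic AMP response element (TGACGTCA), a CCAAT box and a TATA box (TATAAA), the last in overlapping matches on both strands.
*Meg3*: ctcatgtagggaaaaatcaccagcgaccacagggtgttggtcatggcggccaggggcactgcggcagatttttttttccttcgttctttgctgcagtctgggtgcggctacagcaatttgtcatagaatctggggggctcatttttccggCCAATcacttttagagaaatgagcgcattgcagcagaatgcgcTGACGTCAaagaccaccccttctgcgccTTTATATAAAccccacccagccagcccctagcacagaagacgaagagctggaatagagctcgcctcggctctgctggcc
The window held 1 response element, 57 bases before the start, and 1.79% of the 32851 RefSeq promoter windows held one. It held 1 CCAAT (37.4% of windows), TATA matches 25 and 29 bases before the start (13.6%), and no GC box (GGGCGG, 35.7%). It had 13 CG dinucleotides, against a median of 7. The other RefSeq window of *Meg3*, chr12:109545148-109545447, held none of these motifs and had 1 CG. A match is a match of letters only, and no factor binding or methylation was measured here.

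*Rian* was higher in knockout on all 4 of its probe sets, but these fell into differing patterns. On 1428055_at the values were 8.29, 9.86 and 7.97 in knockout, against 7.32, 5.02 and 6.89 in wild type. The groups did not overlap, and the difference of 2.30 ± 0.77 (SE), or 4.92-fold, was the largest of the region and ranked 111 among all 45037 probe sets. On 1440001_at they were 6.76, 8.94 and 6.97 in knockout and 6.39, 5.98 and 6.24 in wild type, again without overlap. That difference, 1.35 ± 0.59 (SE), was 0.66 without knockout replicate 2.

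The brighter *Rian* probe sets did not separate the genotypes in replicate 1. On 1452899_at the values were 11.39, 12.43 and 12.75 in knockout, against 11.62, 8.93 and 9.32 in wild type. On 1427580_a_at they were 8.93, 11.62 and 11.48 in knockout, against 10.15, 8.22 and 8.03 in wild type. Wild-type replicate 1 was above knockout replicate 1 on each, by 0.23 and 1.22, while the other knockout arrays all exceeded the other wild-type arrays by over 3. The differences were 2.23 ± 0.78 and 1.88 ± 0.92 (SE) over all arrays, and 3.46 and 3.42 without replicate 1 of both genotypes. The file gives no positions for the probes, so which parts of the long *Rian* transcript each set reads was not analysed here.

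*Mirg* was higher in knockout on both of its probe sets. On 1457030_at the values were 8.15, 9.77 and 8.40 in knockout, against 7.94, 6.14 and 6.44 in wild type. The groups did not overlap, although knockout replicate 1 exceeded wild-type replicate 1 by only 0.21, and the difference was 1.93 ± 0.63 (SE), or 3.82-fold. On 1440097_at they were 7.46, 8.52 and 6.38 in knockout, against 6.64, 4.99 and 6.08 in wild type, with overlap. That difference was 1.55 ± 0.66 (SE), and 1.02 without knockout replicate 2.

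*Rian* and *Mirg* are read on the same strand as many microRNAs of the region. The RefSeq table places 61 microRNA genes with mature sequences between the start of *Dlk1* and the end of *Dio3*, 57 of them on the plus strand, with 2 inside *Meg3*, 3 inside *Rian* and 10 inside *Mirg*. Mature sequences from inside the measured genes are shown because these RNAs host them. They are RNA, plus strand of GRCm38.p6, with the seed (bases 2 to 8) in capitals. miR-770-3p lies inside *Meg3*, miR-341-3p and miR-370-3p inside *Rian* and the others inside *Mirg*.
mmu-miR-770-3p, chr12:109563744-109563765: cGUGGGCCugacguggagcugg
mmu-miR-341-3p, chr12:109611556-109611576: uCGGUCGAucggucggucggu
mmu-miR-370-3p, chr12:109618305-109618326: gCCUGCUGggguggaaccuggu
mmu-miR-154-3p, chr12:109738474-109738495: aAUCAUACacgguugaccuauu
mmu-miR-377-3p, chr12:109740553-109740574: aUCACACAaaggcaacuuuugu
mmu-miR-409-3p, chr12:109743204-109743225: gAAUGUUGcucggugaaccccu
mmu-miR-369-3p, chr12:109743466-109743486: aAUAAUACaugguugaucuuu
mmu-miR-410-3p, chr12:109743764-109743784: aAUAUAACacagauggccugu
mmu-miR-453, chr12:109735669-109735692: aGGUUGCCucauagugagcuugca
mmu-miR-496a-5p, chr12:109739132-109739152: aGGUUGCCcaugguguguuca
miR-453 and miR-496a-5p share the seed GGUUGCC. Of 104 distinct seeds among the 113 mature names of the region, 9 were shared by more than 1 name. The arrays held values for the host RNAs and not for these mature sequences, so their levels were not analysed here.

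*Dlk1* was higher in knockout on its bright probe set and not on its dim one. On 1449939_s_at the values were 10.29, 7.91 and 8.28 in knockout, against 6.92, 6.58 and 6.46 in wild type. The groups did not overlap, the lowest knockout array lying 0.99 above the highest wild-type array. The means were 8.83 ± 1.28 in knockout and 6.65 ± 0.24 in wild type (SD, n = 3 each), a difference of 2.17 ± 0.63 (SE), or 4.51-fold. On 1442724_at they were 4.45, 4.46 and 4.45 in knockout, against 4.86, 4.40 and 4.12 in wild type, a difference of −0.01 ± 0.21 (SE) at a level that exceeded only 30% of all probe sets.

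The order of the knockout arrays differed between *Dlk1* and the maternally expressed RNAs. Knockout replicate 1 was the highest of the knockout arrays for the bright *Dlk1* probe set, whereas replicate 2 was the highest for 16 of 17 probe sets of *Meg3*, *Rian* and *Mirg*, against 27.3% of all probe sets. Without knockout replicate 1 the *Dlk1* difference was 1.44. This array was the one with the sign of RNA degradation, and its mean over 6 leukocyte markers was 7.32, against 5.23 and 5.55 on the other knockout arrays and 5.07 to 5.99 in wild type. The part of either in the *Dlk1* value was not tested. On the other knockout arrays the bright *Dlk1* probe set read 7.91 and 8.28, against 6.46 to 6.92 in wild type.

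A promoter window of *Dlk1* is shown because it is the measured gene read from the other parental chromosome. It is chr12:109452573-109452872 of GRCm38.p6, plus strand, from RefSeq, and has no capitals because none of the letters searched occurred in it. Unlike the *Meg3* window shown, it lies wholly inside the gene as the RefSeq gene table outlines it, around a later annotated start. The windows shown thus do not cover the same position, and their contents are not compared.
*Dlk1*: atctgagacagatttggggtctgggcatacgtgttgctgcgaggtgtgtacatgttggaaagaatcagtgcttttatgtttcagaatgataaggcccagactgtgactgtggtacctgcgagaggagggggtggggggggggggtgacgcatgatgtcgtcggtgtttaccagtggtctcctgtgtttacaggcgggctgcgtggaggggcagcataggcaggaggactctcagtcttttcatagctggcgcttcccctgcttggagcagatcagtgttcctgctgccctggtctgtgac
It had 9 CG dinucleotides. The windows of *Rian* and *Mirg* had 0 and 10, and of the motifs searched they held only 1 CCAAT, in *Mirg*. No match says only that these letters are not in the window.

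The size of the difference varied between replicate numbers. The labels number the arrays 1 to 3 in each genotype, and knockout minus wild type within a number had a median over the 19 probe sets of 0.37 for replicate 1, 3.26 for replicate 2 and 0.98 for replicate 3. All 3 numbers gave a higher value in knockout for 13 of 19, against 14.7% of all probe sets. For *Meg3* 1439380_x_at the values were 1.07, 3.62 and 1.01, for *Mirg* 1457030_at 0.21, 3.63 and 1.97, and for *Rian* 1452899_at −0.23, 3.50 and 3.43. The bright *Dlk1* probe set had 3.37, 1.33 and 1.82, and was the only one of the 19 whose largest value was in replicate 1. A fit with replicate number as a blocking term gave 0 limma calls among the 19 and 0 among all 45037.

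Wild-type replicate 2, the lowest wild-type array for 11 of the 19 probe sets, also had the lowest mean over the 10 fibroblast markers, 11.13, against 12.79 to 12.93 in knockout and 11.75 and 12.45 on the other wild-type arrays. *Thy1*, a surface protein, and the matrix proteoglycans *Dcn* and *Lum* were each at their lowest on this array. In the order of replicates, *Thy1* read 11.71, 10.54 and 10.28 in knockout, against 12.15, 4.65 and 7.17 in wild type. *Dcn* read 11.54, 12.98 and 12.58 in knockout, against 10.94, 6.87 and 10.0 in wild type. *Lum* read 10.46, 8.77 and 8.56 in knockout, against 8.79, 5.03 and 6.06 in wild type. The growth factor receptor *Pdgfra* had another order, lowest on both replicate 1 arrays, at 9.93, 12.50 and 12.45 in knockout, against 8.62, 9.99 and 11.34 in wild type. Collagen genes *Col1a1*, *Col1a2* and *Col3a1* were at 11.86 or more on all 6 arrays. Other listed markers were highest of the 6 arrays on wild-type replicate 2: *Col1a1* (12.79), *Fn1* (14.32) and *S100a4* (14.83). *Col3a1* was lowest there, at 13.67, so the low list mean was not shared by all markers. The part of these marker differences in the region's values was not tested, and without wild-type replicate 2 the region's median difference was 1.28.

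**Figure D3:**
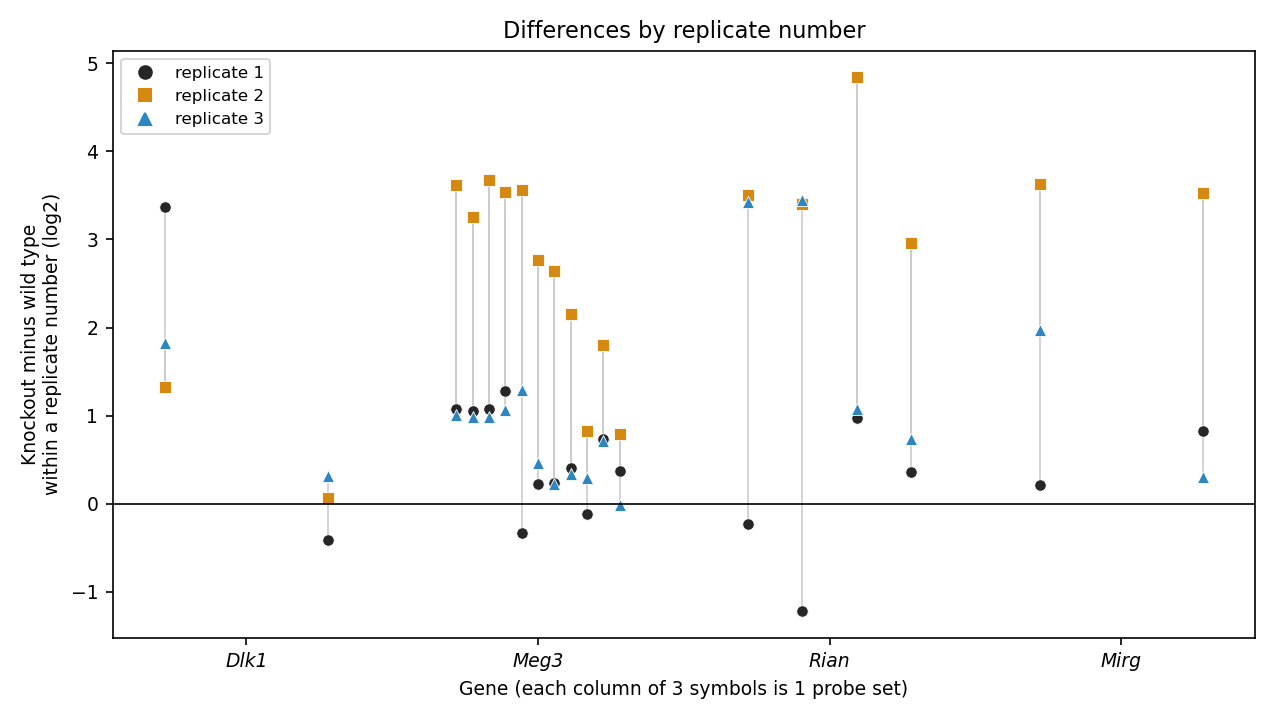
Knockout minus wild type within each replicate number (log2, vertical axis) for the 19 probe sets, each a column of 3 symbols joined by a grey line, ordered within a gene from bright to dim. Replicate 2 gave the largest value for most probe sets of *Meg3*, *Rian* and *Mirg*, and replicate 1 for the bright *Dlk1* probe set at 3.37.

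With both arrays of replicate 1 left out, 3 of 19 probe sets passed limma, all higher in knockout: *Dlk1* 1449939_s_at (1.58 ± 0.19, SE, limma adjusted p = 0.0341), *Rian* 1452899_at (3.46 ± 0.22, limma adjusted p = 0.0230) and *Rian* 1427580_a_at (3.42 ± 0.15, limma adjusted p = 0.0197). Higher calls made up 2.01% of all probe sets and lower calls 2.06% in this fit, and the region was chosen from the same contrast. Each genotype kept only replicates 2 and 3 here. The exclusion was chosen with earlier results of these data known, so these calls are a description. No probe set of *Meg3* or *Mirg* was called, *Mirg* 1457030_at having 2.80 ± 0.49 (SE, limma adjusted p = 0.0596). For *Meg3* 1439380_x_at the difference was 2.32 ± 0.72 (SE), with knockout replicates 2 and 3 at 13.61 and 11.60.

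On *Meg3* probe sets the knockout arrays also varied more among themselves than the wild-type arrays. The SD was larger in knockout for 11 of 11 there, 2 of 4 for *Rian*, 1 of 2 for *Mirg* and 1 of 2 for *Dlk1*. That made 15 of 19, against 46.6% of all probe sets. Knockout replicate 2 was the highest knockout array on all 11 *Meg3* sets. The median SD over the 19 was 1.02 in knockout and 0.49 in wild type, against 0.23 and 0.25 over all probe sets. For the bright *Dlk1* probe set the SD was 1.28 in knockout and 0.24 in wild type, and for the dim one 0.01 and 0.37.

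Among all well-measured genes the profile closest to that of *Meg3* was that of *Mirg*. Each gene with a mean of at least 7 was represented by its brightest probe set, and likeness was the root mean square distance between centred profiles over the 6 arrays. Of 8945 genes *Mirg* came first at 0.41 log2 units, followed by the receptor *Epha4* at 0.48, the calcium channel gene *Cacna1g* and the matrix gene *Svep1* at 0.58 and the membrane protein gene *Adam23* at 0.61. *Rian*, represented by 1452899_at, ranked 599 at 0.95, but its dimmer sets 1440001_at and 1428055_at lay at 0.38 and 0.48 from the same *Meg3* probe set. *Dlk1* ranked 3536 at 1.18. The ranking includes the genotype difference for which the region was chosen and is a description. The closest to *Dlk1* were the protease *Mmp9* (0.54), the secreted chaperone *Clu* (0.67), the protease inhibitor *Serpina3n* (0.69), the transcriptional repressor *Snai1* (0.71) and the hyaluronan synthase *Has2* (0.75), while *Meg3* ranked 1238 and *Mirg* 2092.

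None of the 16 measured genes listed from the sides of the region differed by as much as the region's median of 1.55. These neighbours were listed with earlier results of these data known, and other genes beside the region were not analysed here. On the side of *Dlk1*, 7 measured neighbours from *Evl* to *Wdr25* had 20 probe sets, with differences of −0.53 to 0.20 and a median of −0.13. On the side of *Dio3*, 9 neighbours from *Ppp2r5c* to *Cdc42bpb* had 25 probe sets, with differences of −0.68 to 0.23 and a median of −0.19. By limma 0 of these 45 were called, beside 0 of all 45037 probe sets, and 38 were lower in knockout. Every knockout array lay above every wild-type array for 0 and below for 4, against 4.48% and 4.43% of all probe sets. The nearest measured neighbours were *Wdr25*, at −0.31 ± 0.21 (SE), and *Ppp2r5c*, which encodes a regulatory subunit of protein phosphatase 2A, at −0.68 ± 0.16 on its brightest probe set and −0.19 to 0.02 on its other 6.

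Next to *Dio3* itself 1 RNA was measured, *Dio3os*, a noncoding RNA that starts beside it and was not on the list. It was named after its values were seen. Its probe set 1435121_at read 8.0, 5.68 and 5.88 in knockout, against 6.67, 5.84 and 5.42 in wild type. Only knockout replicate 1 lay above the wild-type range, the groups overlapped, and the difference was 0.54 ± 0.70 (SE), or −0.20 without that array.

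**Figure D4:**
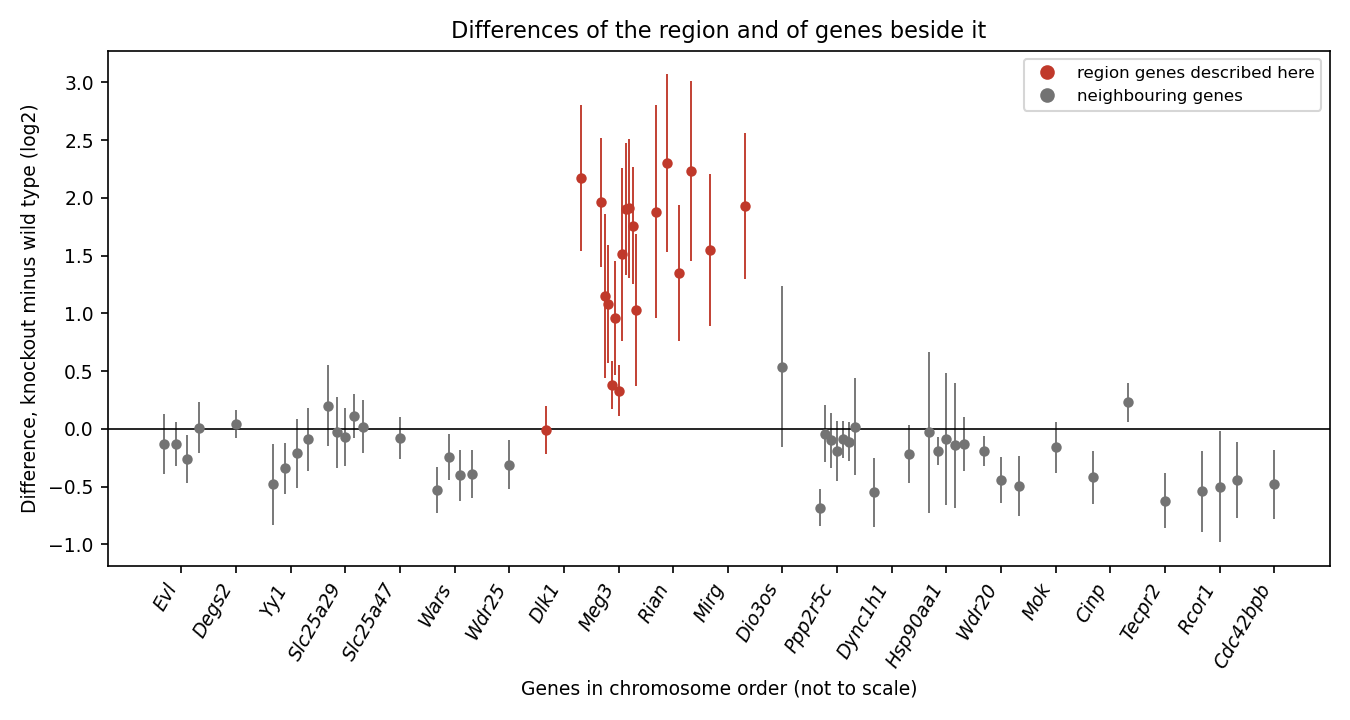
Difference between genotypes (knockout minus wild type, log2, vertical axis, bars are the SE of the fit) for each probe set. The region is in red, *Dio3os* and the genes flanking the region are in grey, with genes in chromosome order and not to scale. The 45 probe sets of the flanking genes lay between −0.68 and 0.23, and 18 of 19 in the region lay above 0.

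Regulators that establish or keep imprints were mostly somewhat higher in knockout, without a call over all 6 arrays. Of 20 measured, 0 were called by limma, beside 0 of all 45037 probe sets. Of the 20, 16 lay above 0, against 49.1% of all probe sets, and the median was 0.45. This list and the lists below were chosen with earlier results of these data known, so their counts are a description. *Tet1*, an enzyme that oxidises methylated cytosine, had the largest difference, 1.41 ± 0.44 (SE), and the DNA methyltransferase *Dnmt3a* the lowest, −0.62 ± 0.35. Without replicate 1 of both genotypes 4 of 20 were called, all higher, beside 2.01% of all probe sets called as higher in that fit: *Tet1* (1.76), *Dnmt3l* (1.83), *Uhrf1* (1.38), which brings the maintenance methyltransferase to newly copied DNA, and the histone methyltransferase *Ehmt2* (0.92). *Tet1* and *Dnmt3l* were dim, with means under 6. In replicate 1 *Dnmt3l* read 5.16 in knockout and 6.25 in wild type. *Uhrf1* was lowest on the replicate 1 arrays, at 9.80 in knockout and 8.72 in wild type.

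Imprinted genes outside the region did not share a direction. Of 17 measured, 0 were called by limma over all arrays, beside 0 of all 45037 probe sets. Of the 17, 10 lay above 0 and 7 below, and the median was 0.05. The extremes were *Dcn*, a matrix proteoglycan, at 3.10 ± 1.09 (SE) and the growth factor receptor adaptor *Grb10* at −2.92 ± 1.19. *Dcn* is also on the fibroblast marker list, and its lowest value, 6.87, was on wild-type replicate 2. *Grb10* read 12.31, 8.17 and 7.94 in knockout, against 12.10, 12.64 and 12.43 in wild type. Its knockout replicate 1 thus lay inside the wild-type range. Without replicate 1 of both genotypes 3 of 17 were called, beside 2.01% of all probe sets as higher and 2.06% as lower: *Cdkn1c* (1.95), a cell cycle inhibitor, and *Igf2r* (1.72), a receptor that removes insulin-like growth factor 2 from outside the cell, as higher and *Grb10* (−4.48) as lower.

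Genes of the pathways in which the region's proteins act gave 0 calls by limma over all arrays, beside 0 of all 45037 probe sets. Nothing is read from this count. The Notch list had 11 of 18 genes above 0 and a median of 0.01, with *Dlk2*, the closest relative of *Dlk1*, lowest at −0.93 ± 0.50 (SE) and the target gene *Hey1* highest at 0.68 ± 0.35. The list of thyroid hormone conversion, transport and response genes had 5 of 10 above 0 and a median of −0.05, with the receptor *Thra* highest at 0.66 ± 0.22 and the hormone-responsive factor *Klf9* lowest at −0.46 ± 0.62. Among 11 preadipocyte and adipocyte genes 7 lay above 0 and the median was 0.17, with the lipase *Lpl* highest at 4.22 ± 1.56 and *Cebpd* lowest at −1.38 ± 1.26. The genotypes overlapped for *Lpl*, with knockout replicate 1 at 7.82 and wild-type replicate 3 at 8.82. Without replicate 1 of both genotypes *Hey1* (1.20) and the adipocyte factor *Cebpa* (2.51) were called as higher, beside 2.01% of all probe sets, and no thyroid hormone gene was called.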

How the data were processed

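Per the labels' protocols, a 3′ IVT kit turned total RNA into biotinylated target for 1 array per sample. The authors deposited log2 signals, 1 per probe set; RMA and R 2.11.1 are named in the submitters' processing notes. The annotation package is not given in the sources used here. RMA quantile normalises the arrays, so a change in total RNA cannot be seen. Of 45101 probe sets 64 controls were left out. Among the other 45037 the platform table named 1 gene for 34945, several for 932 and none for 9160, and genes were named only from the first kind. *Hotair* was not analysed here, which leaves the genotype labels without a check on the deleted gene.

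The comparison used limma 3.58.1 under R 4.3.3, with genotype as the only term of lmFit and eBayes, over all 45037 probe sets, with Benjamini-Hochberg adjustment at 0.05. SEs are the moderated ones of this fit. The number of arrays limits the precision, and an exact permutation test of 1 value between 3 and 3 arrays cannot go below 0.1. Members and lists were chosen with earlier results of these data known. All region probe sets were named. For lists each gene was represented by its brightest probe set, and the largest and smallest differences and any called genes were named, and the likeness rule took the 5 closest genes. To check pairing, each array was set against the mean of its genotype. Same-numbered deviations correlated at 0.497 (replicate 1), 0.492 (2) and 0.247 (3), which by the rule used counts as pairing, although knockout 2 and wild type 3 reached 0.326. Replicate 1 stood apart in both genotypes, which alone can make arrays 2 and 3 correlate across genotypes. The rule therefore cannot settle whether the arrays were paired. Alternatives were a replicate block, leaving out arrays, other priors and weights, a filter on dim probe sets, other scaling and 1 probe set per gene. The fit was tested on simulated data. Sequences are from RefSeq tables of GRCm38.p6, in which 5 of the 6 genes had a promoter window.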

Additional observations from a re-analysis of the deposited data

How the results depend on the processing

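Over 14 alternatives the median difference of the region's probe sets stayed above 0 and moved by less than 0.78. That value is the pooled SD within genotypes of the region's own median on each array, with each probe set centred on its mean. It ranged from 1.02 to 1.92 when 1 array was left out. Single probe sets were recomputed 248 times in all; 9 of these values lay below 0, all 9 for *Dlk1* 1442724_at. More than 1 replicate SD separated 2 from their value over all arrays, *Rian* 1452899_at (3.46) and 1427580_a_at (3.42), both without replicate 1 of both genotypes. With these 2 arrays left out limma called 3 region probe sets and 1836 of all, and without knockout replicate 1 it called 0 and 48. Leaving out 1 array gave 0 to 48 calls over all probe sets and 0 in the region. The replicate block, other priors, array weights, quantile renormalisation, centring, 1 probe set per gene (18193 genes) and a filter at a mean of 6 (20402 probe sets, 16 of the 19) gave 0 calls. The replicate block changed no call. The alternative without replicate 1 was chosen with earlier results of these data known, and why it adds calls was not tested. Signals near the lower end, as in *Dlk1* 1442724_at and *Meg3* 1429256_at, limit what those probe sets can show.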
